A study of Mus musculus with 37 samples.

Results

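Mammary glands collected 1 week after exposure to 30 cGy of silicon ions (Si, 350 MeV/amu) were compared with glands of the same week from sham-irradiated mice. The comparison rests on 6 of the 37 arrays of the series, 3 with Si and 3 with sham, chosen by the treatment and week in their titles. All mice were BALB/c females exposed at 10 weeks of age. In every mouse, sham included, the inguinal gland of one side had been cleared earlier, and the arrays hold total RNA of the intact gland on the other side. The series also has 10 cGy Si and 100 cGy of gamma rays at week 1, and all 4 treatments at weeks 4 and 12. Glands of week 1 were taken where the mice were irradiated, whereas mice of weeks 4 and 12 had been moved back first, so time and place of collection cannot be told apart. Replicates are labelled as separate samples without saying whether each is 1 mouse, so every p-value here speaks of the spread among arrays, part of which may be technical.

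Silicon ions deposit energy densely along narrow tracks and leave clustered damage in the cells they cross, whereas gamma rays ionize sparsely. Damaged cells stabilise the transcription factor p53, which induces Cdkn1a and other genes of arrest, repair and death. Reactive oxygen species and lipid peroxides that follow irradiation are handled by superoxide dismutases, peroxidases and glutathione transferases, many of them induced by the factor Nrf2 through antioxidant response elements. The gland is a mixed tissue of ducts in a fat pad, and the inguinal pad also holds a lymph node.

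The values are log2 expression values, so a difference of 1 is a doubling. Each gene is given by 1 probe set, and a gene was called at an adjusted p under 0.05 (limma, Benjamini-Hochberg over 13174 genes tested). The epithelial gene Krt8 lay between 10.4 and 10.7 with Si and between 9.65 and 11.4 with sham, and the fat gene Adipoq between 11.4 and 11.5 and between 11.3 and 11.4. The milk gene Csn2 stood at the 30.2 percentile of genes in its mean level, and muscle Acta1 ranged from 7.97 to 11.2 over the sham arrays. Sham replicate 3 stood apart, with correlations of 0.969 to 0.979 with the other 5 arrays, which correlated with each other at 0.987 to 0.993.

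Gsta3, Morc4 and Clmp rose after 30 cGy Si, and no gene fell past the threshold. These 3 calls are 0.0228% of the genes tested. At an unadjusted p under 0.05, 1120 genes (8.5%) were higher and 467 (3.54%) lower. The 3 Si arrays lay wholly above the 3 sham arrays for 1915 genes (14.5%) and wholly below them for 808 (6.13%). The median difference over all genes was 0.03, with 7270 genes above 0.

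Gsta3, an alpha-class glutathione transferase that joins glutathione to reactive lipid products, had values of 9.41, 9.33 and 9.07 with Si against 8.0, 8.04 and 8.35 with sham. The lowest Si array lay above the highest sham array. The difference was 1.14 ± 0.19 (SE, n = 3 and 3, adjusted p = 0.0215), a ratio of 2.20. Leaving out single arrays of the comparison kept it between 1.07 and 1.25, and the gene stayed called in 2 of 6 such fits.

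Morc4, a member of the MORC family of ATPases that bind chromatin, read 6.94, 6.91 and 6.96 with Si against 6.22, 6.26 and 6.07 with sham. The Si arrays lay within a narrow band above all sham arrays. It rose by 0.75 ± 0.13 (SE, n = 3 and 3, adjusted p = 0.0215), and it was called in 0 of the 6 fits without 1 array, with differences from 0.70 to 0.79. Its relatives Morc2a and Morc3 differed by -0.19 and -0.15, neither called.

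Clmp, an adhesion molecule of the tight-junction family that is also made by adipocytes, read 8.25, 8.18 and 8.05 with Si against 7.76, 7.65 and 7.45 with sham. The groups did not overlap, and the difference was 0.54 ± 0.096 (SE, n = 3 and 3, adjusted p = 0.0215). It ranged from 0.46 to 0.61 without single arrays and was called in 2 of those 6 fits. Whole sets of calls depended on single arrays: 0 genes were called without Si replicate 1, without Si replicate 2 or without sham replicate 2, although the 3 differences kept their direction.

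**Figure D1:**
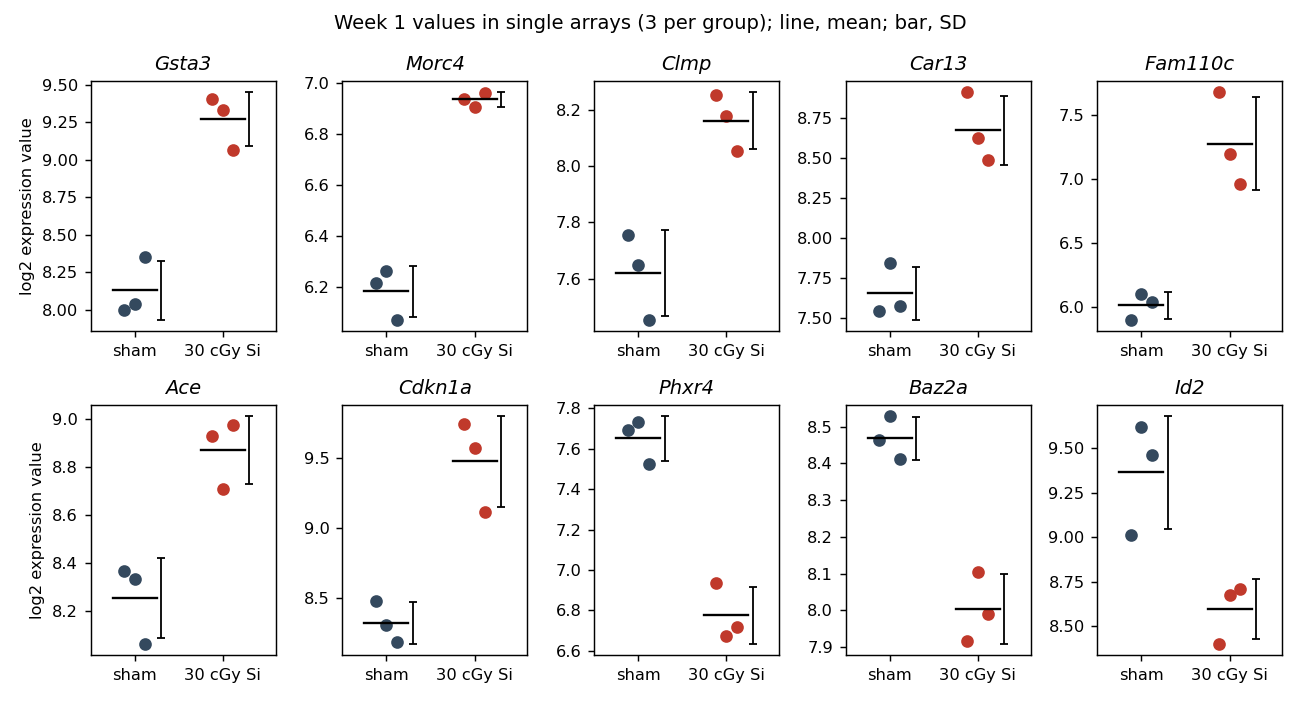
Log2 expression value (y) of 10 genes in each sham and 30 cGy Si array of week 1 (points, replicates 1 to 3 from left to right; line, mean; bar, SD). In each panel the groups do not overlap, and only Gsta3, Morc4 and Clmp were called.

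The promoter stretches of Gsta3 and Morc4 are shown because these genes had the smallest p-values and differ in the core of the antioxidant response element, TGANNNNGC. The RefSeq promoter table (GRCm38.p6) held 2 of the 3 called genes. Each sequence is the 250 bases before the gene's start, 5′ to 3′ on the gene's strand, with matches to the core on either strand in capitals. Gsta3 lies on the plus strand at chr1:21240335-21240584, and Morc4 on the minus strand at chrX:139871655-139871904.
Gsta3: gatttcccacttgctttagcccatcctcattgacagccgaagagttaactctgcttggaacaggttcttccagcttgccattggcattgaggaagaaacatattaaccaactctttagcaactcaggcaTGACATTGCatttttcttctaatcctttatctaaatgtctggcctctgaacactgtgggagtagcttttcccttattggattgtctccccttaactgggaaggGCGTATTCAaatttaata
Morc4: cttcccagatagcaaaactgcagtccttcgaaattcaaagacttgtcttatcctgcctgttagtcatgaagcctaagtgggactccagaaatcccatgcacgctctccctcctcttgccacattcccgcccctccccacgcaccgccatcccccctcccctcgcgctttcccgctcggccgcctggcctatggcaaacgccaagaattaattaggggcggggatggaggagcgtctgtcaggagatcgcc
The Gsta3 stretch holds 2 matches, one on the gene's strand from 121 to 113 bases before the start and one on the opposite strand from 18 to 10 bases before it. The Morc4 stretch holds 0 matches in these letters. Of 32851 promoters in the table, 35.2% hold at least 1 match and 7.03% hold 2 or more, and 12 of 28 promoters (42.9%) of the 19 glutathione transferase genes in it hold at least 1 and 3 (10.7%) hold 2 or more. A match is a description of the sequence.

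The same 3 genes were followed in the other groups. They were chosen by their calls between 30 cGy Si and sham at week 1, which by itself favours larger differences there. All week 1 comparisons share the 3 sham arrays, so their differences from sham are given side by side only. Gsta3 differed from sham by 1.14 after 30 cGy Si, 0.73 after 10 cGy Si and 0.52 after gamma rays. Morc4 differed by 0.75, 0.44 and 0.35 in that order, and Clmp by 0.54, 0.20 and 0.41. None of the 3 was called between 30 cGy Si and either of the other exposures. The largest such difference in Gsta3 was 0.62 ± 0.19 (SE) against gamma rays, with an adjusted p of 0.999.

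At later weeks the 30 cGy Si difference was smaller for each of them. Choosing the genes by their week 1 calls favours such a fall, so it is no measure of a change with time. Gsta3 differed from the sham arrays of the same week by 0.36 at week 4 and 0.25 at week 12, Morc4 by 0.21 and 0.32, and Clmp by 0.21 and 0.11. Sham levels also moved between weeks: mean Gsta3 in sham was 8.13 ± 0.20 (SD, n = 3) at week 1, 8.65 ± 0.17 (n = 4) at week 4 and 8.68 ± 0.33 (n = 3) at week 12. With 30 cGy Si it was 9.27 ± 0.18, 9.01 ± 0.030 and 8.93 ± 0.26 (SD, n = 3 each). Of the 3 treatments, the 30 cGy Si mean was the highest at each week for all 3 genes, although at weeks 4 and 12 the SDs of the 2 Si doses overlapped. The change of the Gsta3 difference from week 1 to week 4 was 0.78 ± 0.27 (SE), with an adjusted p of 0.546.

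**Figure D2:**
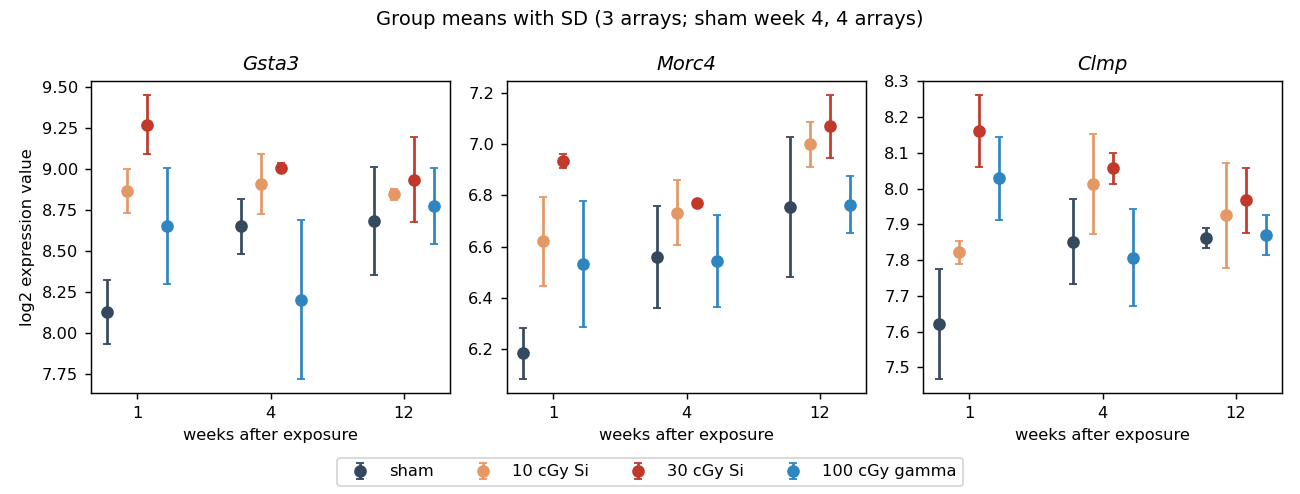
Mean log2 expression value with SD (y) of Gsta3, Morc4 and Clmp in the 12 groups, by week after exposure (x). Sham means of Gsta3 run from 8.13 at week 1 to 8.68 at week 12, while 30 cGy Si means run from 9.27 to 8.93.

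Genes next in order of p did not pass the adjusted threshold. Car13, a cytosolic carbonic anhydrase that interconverts carbon dioxide and bicarbonate, read 8.91, 8.62 and 8.49 with Si against 7.55, 7.84 and 7.57 with sham, a difference of 1.02 ± 0.20 (SE, adjusted p = 0.0557). Fam110c, a centrosome- and microtubule-associated protein, read 7.68, 7.19 and 6.96 against 5.90, 6.11 and 6.04, a difference of 1.26 ± 0.25 (SE, adjusted p = 0.0557). Neither gene's groups overlapped. Ace, the angiotensin-converting enzyme of endothelium, differed by 0.62 ± 0.13 (SE), and Rarres1, a retinoic-acid-responsive gene, by 0.84 ± 0.18 (SE), both with an adjusted p of 0.0756. Twf1, which binds actin monomers, differed by 0.49, and its other probe set by 0.32.

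Further genes with higher values included Dkk2, a secreted modulator of Wnt signalling, at 0.71 (adjusted p = 0.0994). The dipeptidyl peptidase Dpp7 and the phospholipase Pla2g15, both enzymes of the lysosome, each differed by 0.55. The serotonin transporter Slc6a4 differed by 0.59, the calpain protease Capn10 by 0.58 and Fam184a by 0.65. Lekr1 differed by 0.75 in the probe set used and by -0.08 in its other one. Each of these 7 genes had all Si arrays above all sham arrays, as did 14.5% of all genes. They were named for their small p in the same comparison, so this adds no support.

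Among genes with lower values, Phxr4 read 6.93, 6.67 and 6.72 with Si against 7.69, 7.73 and 7.53 with sham, a difference of -0.88 ± 0.18 (SE, adjusted p = 0.0756). Baz2a, a subunit of the complex that silences ribosomal RNA genes, read 7.92, 8.10 and 7.99 against 8.46, 8.53 and 8.41, a difference of -0.46 ± 0.098 (SE, adjusted p = 0.0756). In both, every Si array lay below every sham array. Id2, which blocks helix-loop-helix transcription factors, differed by -0.77 (adjusted p = 0.225). The transcription factor subunit Taf4 differed by -0.28. Cnot1, the scaffold of the CCR4-NOT deadenylase, differed by -0.34 in the probe set used and by -0.12 in its other one. Zscan2, a zinc finger gene, differed by -0.57.

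Other lower genes were less even. Zfp296 differed by -0.67, but its highest Si array (4.97) reached its lowest sham array (4.97). Sidt1, a transmembrane protein of RNA uptake that lymphocytes express, differed by -1.49 and read 7.10, 7.62 and 8.32 in sham replicates 1 to 3. Fryl differed by -0.53 in the probe set used and by -0.16 and -0.24 in the others.

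The glutathione transferases lay mostly higher with Si. Of 21 members tested, 19 were above 0, 1 was called, 5 were higher at an unadjusted p under 0.05 (beside 8.5% of all genes) and 0 lower, and 11 (52.4%, beside 14.5% of all genes) had every Si array above every sham array. Their median difference was 0.24 beside 0.03 over all genes, 0.21 without sham replicate 3 and 0.39 over the members kept by a filter at the 50th percentile. Gsta4, which conjugates the lipid aldehyde 4-hydroxynonenal, read 8.91, 9.06 and 8.80 with Si against 8.39, 8.31 and 8.30, a difference of 0.59 ± 0.21 (SE, adjusted p = 0.321). Gstm7 differed by 0.57, the mitochondrial and peroxisomal Gstk1 by 0.52 and Hpgds, the prostaglandin D synthase of this family, by 0.58. Gstt2 was the only member whose Si arrays all lay below sham, at -0.25. Members of the mu class are close in sequence, and whether their probe sets respond to each other's transcripts was not tested.

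Other glutathione and antioxidant enzymes gave a median of 0.22 over 28 tested members, with 21 above 0 and 0 called. It was 0.13 without sham replicate 3. The mitochondrial superoxide dismutase Sod2 read 10.36, 10.38 and 10.35 with Si against 9.88, 9.95 and 9.94 with sham, with little spread inside either group, and differed by 0.44 ± 0.18 (SE, adjusted p = 0.368). Nfe2l2, which encodes Nrf2, differed by 0.22 and Srxn1, which repairs oxidised peroxiredoxins, by 0.32, both without overlap. Hmox1, the heme oxygenase, differed by 0.48 with overlapping groups.

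Cdkn1a, the cell-cycle inhibitor and best-known p53 target, read 9.74, 9.57 and 9.12 with Si against 8.48, 8.30 and 8.19 with sham. The groups did not overlap, and the difference was 1.15 ± 0.31 (SE) with an adjusted p of 0.261. It differed from sham by 1.09 after 10 cGy Si and 0.99 after gamma rays, and after 30 cGy Si by 0.38 at week 4 and -0.02 at week 12.

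The other p53 targets went both ways, and none was called. Mdm2, the ubiquitin ligase of p53, read 7.67, 7.57 and 7.33 against 7.40, 7.46 and 7.74, so the groups overlapped, and the sign of its difference of -0.009 turned without sham replicate 3 (0.092) and without Si replicate 3 (0.087). Ccng1 differed by 0.17, Phlda3 by 0.15 and the death receptor Eda2r by 0.39, and the antiproliferative Btg2 by -0.63. Over 27 tested targets, Cdkn1a included, 12 were above 0, and the median was -0.01, from -0.08 to 0.09 without single arrays. At an unadjusted p under 0.05, 1 target, Cdkn1a itself, was higher (beside 8.5% of all genes) and 1 lower (beside 3.54%). The 24 DNA break repair genes gave a median of 0.0081 with 13 above 0, from -0.068 to 0.065 without single arrays.

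Stress lists gave small medians. Heat shock chaperones had a median of 0.17 over 16 members with 14 above 0, and endoplasmic reticulum stress genes also 0.17 over 21 members with 17 above 0. Without single arrays these medians lay between 0.10 and 0.18 and between 0.099 and 0.19. The mitochondrial chaperonin Hspd1 differed by 0.45, with Si values of 9.75, 9.84 and 9.66 against 9.14, 9.48 and 9.28. Glucocorticoid-response genes, a list that also holds Cdkn1a, gave 0.24 over 20 members, but 0.04 without sham replicate 3. Immediate early genes gave -0.14 over 25 members, and 0.015 without sham replicate 1. Interferon-stimulated genes gave 0.08 over 22 members, from 0.007 to 0.20 without single arrays, and cell cycle genes gave -0.10 over 23 members, but 0.13 without sham replicate 3.

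Fatty acid synthesis genes lay higher with Si, although none was called. Of 25 members 22 were above 0, 6 were higher (8.5% of all genes were) and 0 lower at an unadjusted p under 0.05, and 13 (52.0%, beside 14.5% of all genes) did not overlap on the higher side. The median was 0.32, and 0.34 without sham replicate 3, but without that array only 1 member was higher and 1 lower at that p. Over the 13174 genes tested, 775 were then higher and 567 lower. Elovl6, which elongates palmitate, read 10.35, 10.87 and 10.51 with Si against 8.58, 9.11 and 9.06 with sham, a difference of 1.66 ± 0.69 (SE, adjusted p = 0.371). Acly, which makes cytosolic acetyl-CoA from citrate, differed by 1.40 ± 0.61 (SE), the desaturase Scd2 by 0.82 and the lipid-droplet protein Pnpla3 by 0.77. All Si arrays of Elovl6 lay above all sham arrays, while its SE rests on the spread within all 12 groups.

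The list's median difference from sham was 0.24 after 10 cGy Si and -0.08 after gamma rays at week 1, and after 30 cGy Si -0.11 at week 4 and 0.53 at week 12. Elovl6 differed from the shared sham arrays by 1.28 after 10 cGy Si and -0.63 after gamma rays, and after 30 cGy Si by -0.68 at week 4 and 1.61 at week 12. In the direct comparison with 10 cGy Si at week 1, the list's median was 0.062, with 19 of 25 members above 0. At an unadjusted p under 0.05, 1 member was higher and 1 lower, beside 492 and 362 of the 13174 genes tested. In the direct comparison with gamma rays at week 1, the list's median was 0.42, with 23 of 25 members above 0. At an unadjusted p under 0.05, 8 members were higher there, beside 397 of the 13174 genes tested. Scd2 differed there by 1.38 ± 0.32 (SE, adjusted p = 0.757).

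Sterol synthesis genes gave a median of 0.34 over 20 members, with 16 above 0, 3 higher at an unadjusted p under 0.05 (beside 8.5% of all genes) and 12 not overlapping on the higher side (beside 14.5%). Without sham replicate 3 only 1 was higher at that p, beside 775 of the 13174 genes tested. Lss, lanosterol synthase, read 7.46, 7.52 and 7.41 with Si against 7.04, 6.60 and 6.84 with sham, a difference of 0.64. Oxidative phosphorylation subunits gave 0.23, with 27 of 28 above 0 and 15 not overlapping on the higher side, beside 14.5% of all genes. At an unadjusted p under 0.05 only 2 subunits were higher, beside 8.5% of all genes. Of the subunits, Sdhd, a membrane anchor of succinate dehydrogenase, differed by 0.48. White adipocyte genes gave 0.19 over 18 members with 16 above 0 and 10 not overlapping on the higher side (beside 14.5% of all genes). At an unadjusted p under 0.05 only 1 of them was higher, beside 8.5% of all genes. The fat-cell regulator Pparg differed by 0.39.

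Cytosolic ribosomal protein genes went the other way. Only 1 of 22 was above 0, 11 had all Si arrays below all sham arrays (beside 6.13% of all genes), and the median was -0.20. At an unadjusted p under 0.05, 1 was lower (beside 3.54%). Without sham replicate 3, 5 were lower at that p, beside 567 of the 13174 genes tested. Rpl5 differed by -0.32 and Rpl8 by -0.32. Against the shared sham arrays the ribosomal median was also -0.16 after 10 cGy Si and -0.16 after gamma rays. Directly, the 30 cGy Si median was -0.056 against 10 cGy Si and -0.014 against gamma rays. With covariates for lymphocyte, muscle, epithelial and brown fat genes in the fit, the medians were 0.044 for fatty acid synthesis, 0.054 for sterol synthesis, 0.019 for oxidative phosphorylation, 0.00083 for white adipocyte genes and -0.072 for ribosomal proteins. For glutathione transferases the median was then 0.16. The brown adipocyte list, whose mean level was the brown fat covariate, itself lay higher with Si. Its median was 0.37 over 10 members, with 8 above 0. How much of the other lists' differences that covariate took up was not tested.

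**Figure D3:**
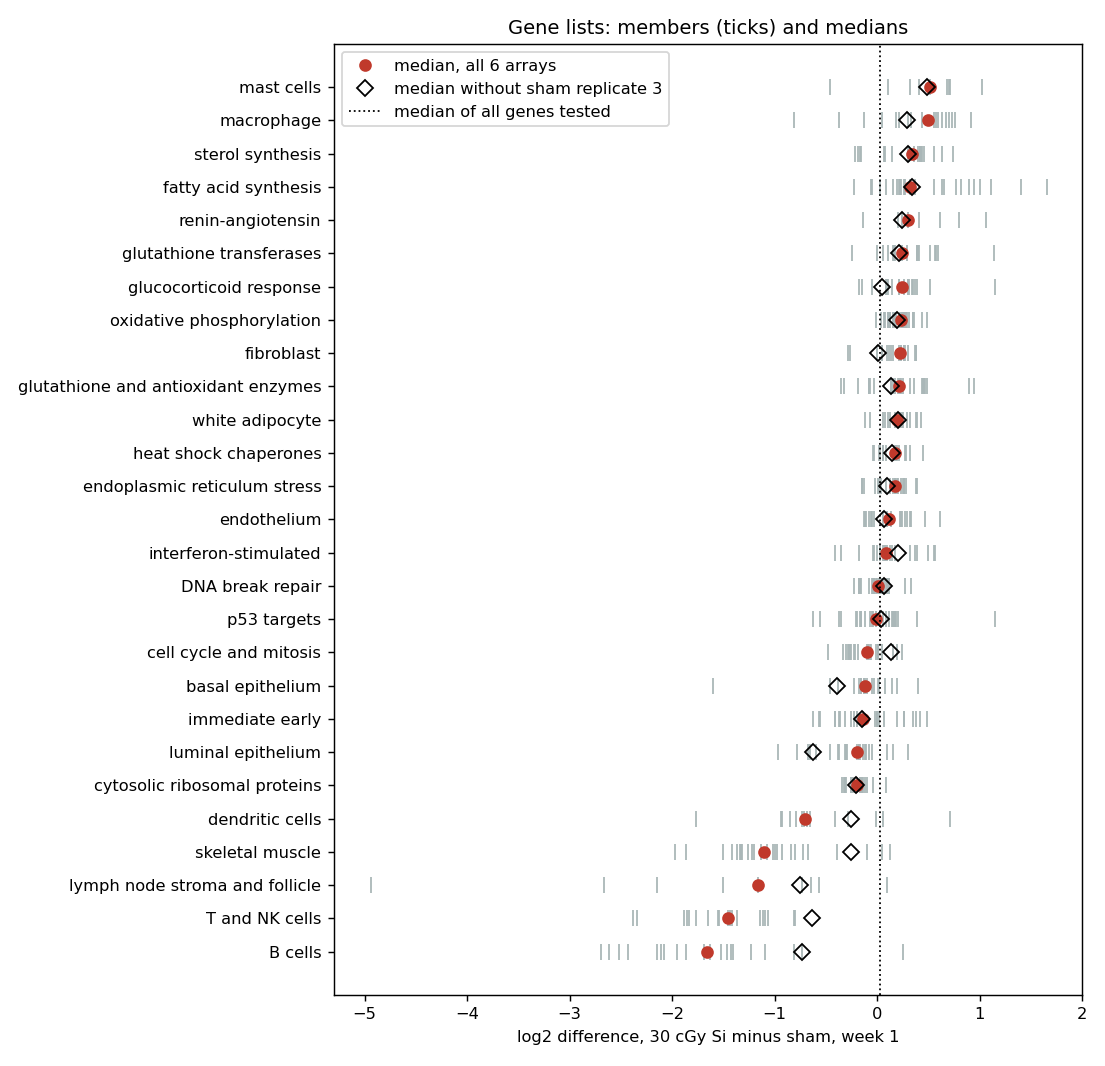
Log2 difference between 30 cGy Si and sham at week 1 (x) for 27 gene lists (y); ticks are tested members, filled circles the median over all 6 arrays, open diamonds the median without sham replicate 3, and the dotted line the median of all genes tested (0.03). Lymphocyte, dendritic, muscle and luminal medians move most between circle and diamond, while those of fatty acid synthesis (0.32 and 0.34) and ribosomal proteins (-0.20 and -0.21) stay close.

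Lymphocyte genes lay lower with Si, and much of the distance came from 1 sham array. None of 19 T and NK cell genes was above 0, 6 were lower at an unadjusted p under 0.05 (beside 3.54% of all genes), 6 did not overlap on the lower side (beside 6.13%) and 0 were called. Their mean level was 4.37, 4.74 and 4.54 with Si and 5.76, 4.76 and 7.63 in sham replicates 1 to 3. Sham replicate 2 thus lay close to the Si arrays and sham replicate 3 far above. The median difference was -1.46, but -0.64 without sham replicate 3. Without that array 0 members were lower at an unadjusted p under 0.05, beside 567 of the 13174 genes tested.

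B cell genes gave a median of -1.66 over 20 members, with 1 above 0, and -0.73 without sham replicate 3. Genes of lymph node stroma and follicles gave -1.16 over 9 members, -0.75 without sham replicate 3 and -1.97 without sham replicate 2. Glycam1, a ligand of the homing receptor made by lymph node venules and also by milk-secreting cells, read 4.28, 7.19 and 5.15 with Si against 10.3, 9.10 and 12.1 with sham, a difference of -4.94 ± 2.2 (SE, adjusted p = 0.389). The chemokine Ccl19 differed by -2.67, and dendritic cell genes gave -0.70 over 14 members, but -0.26 without sham replicate 3. In bulk tissue, fewer cells of a type and less RNA per cell cannot be told apart.

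The lymphocyte level also varied widely inside another group. The T and NK cell list had mean levels of 7.15, 4.73 and 6.47 in 10 cGy Si replicates 1 to 3. Skeletal muscle genes had mean levels of 7.00, 5.20 and 7.56 with Si and 7.43, 6.21 and 9.19 with sham, and their median of -1.10 was -0.25 without sham replicate 3. Their part in the other differences of this comparison was not tested beyond the covariate fits. With a lymphocyte covariate 1 gene, Gsta3, was called (1.20), and with all 4 covariates 0 were, with differences of 0.93 for Gsta3, 0.59 for Morc4 and 0.54 for Clmp.

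Epithelial genes lay somewhat lower. Of 23 luminal genes 3 were above 0, with a median of -0.19. The median became -0.63 on leaving out sham replicate 3, and -0.031 on leaving out sham replicate 2. The list's mean level was 7.89, 7.91 and 7.99 with Si and 8.48, 8.66 and 7.48 with sham, so sham replicate 3 lay on the far side of the Si arrays. Gata3, the luminal transcription factor, differed by -0.65, and -1.06 without that array. Basal genes gave -0.11 over 19 members, -0.39 without sham replicate 3 and 0.11 without sham replicate 2.

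Macrophage and mast cell genes lay higher. Of 18 macrophage genes 15 were above 0, 5 were higher at an unadjusted p under 0.05 (beside 8.5% of all genes) and 0 lower, and the median was 0.50. Without sham replicate 3 the median was 0.29, with 2 members higher and 1 lower at that p. Over the 13174 genes tested, 775 were then higher and 567 lower. Adgre1, a surface antigen of macrophages, read 7.54, 7.20 and 7.66 with Si against 7.10, 6.68 and 6.35 with sham, a difference of 0.76 ± 0.24 (SE, adjusted p = 0.287). The mannose receptor Mrc1 differed by 0.73 and the lectin Cd209g by 0.92. Of 9 mast cell genes 8 were above 0, 6 were higher at an unadjusted p under 0.05 (beside 8.5% of all genes), and the median was 0.51. Without sham replicate 3 the median was 0.48, with 3 members higher and 1 lower at that p, beside the same 775 and 567 genes.

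Among mast cell genes, the carboxypeptidase Cpa3 read 8.94, 8.69 and 8.40 with Si against 7.97, 7.69 and 7.32 with sham, so every Si array was higher. Its difference was 1.02 ± 0.30 (SE, adjusted p = 0.261). The histidine decarboxylase Hdc, which makes histamine, differed by 0.71 and the tryptase Tpsab1 by 0.51. With the 4 covariates the medians were 0.66 for macrophage and 0.54 for mast cell genes. Other week 1 exposures were also above the shared sham arrays. The macrophage median was 0.35 after 10 cGy Si and 0.66 after gamma rays, and the mast cell median 0.20 and 0.51. Directly against gamma rays, the 30 cGy Si medians were -0.11 and -0.02.

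Genes of the vessel wall and the renin-angiotensin system were followed with Ace, which is on both lists. Of 9 renin-angiotensin genes 8 were above 0, 4 were higher at an unadjusted p under 0.05 (beside 8.5% of all genes), and the median was 0.30. Without sham replicate 3 the median was 0.24, with 3 members higher and 1 lower at that p. Over the 13174 genes tested, 775 were then higher and 567 lower. The angiotensin receptor Agtr2 read 5.85, 5.93 and 5.88 with Si against 5.02, 4.93 and 4.51 with sham, a difference of 1.06 ± 0.32 (SE, adjusted p = 0.274). The angiotensin-degrading aminopeptidase Enpep differed by 0.80. Endothelial genes gave a median of 0.12 over 20 members, 13 of them above 0, with the angiopoietin receptor Tek at 0.47. The median lay between 0.07 and 0.20 without single arrays. Fibroblast genes gave 0.22 over 20 members, but 0.003 without sham replicate 3.

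**Figure D4:**
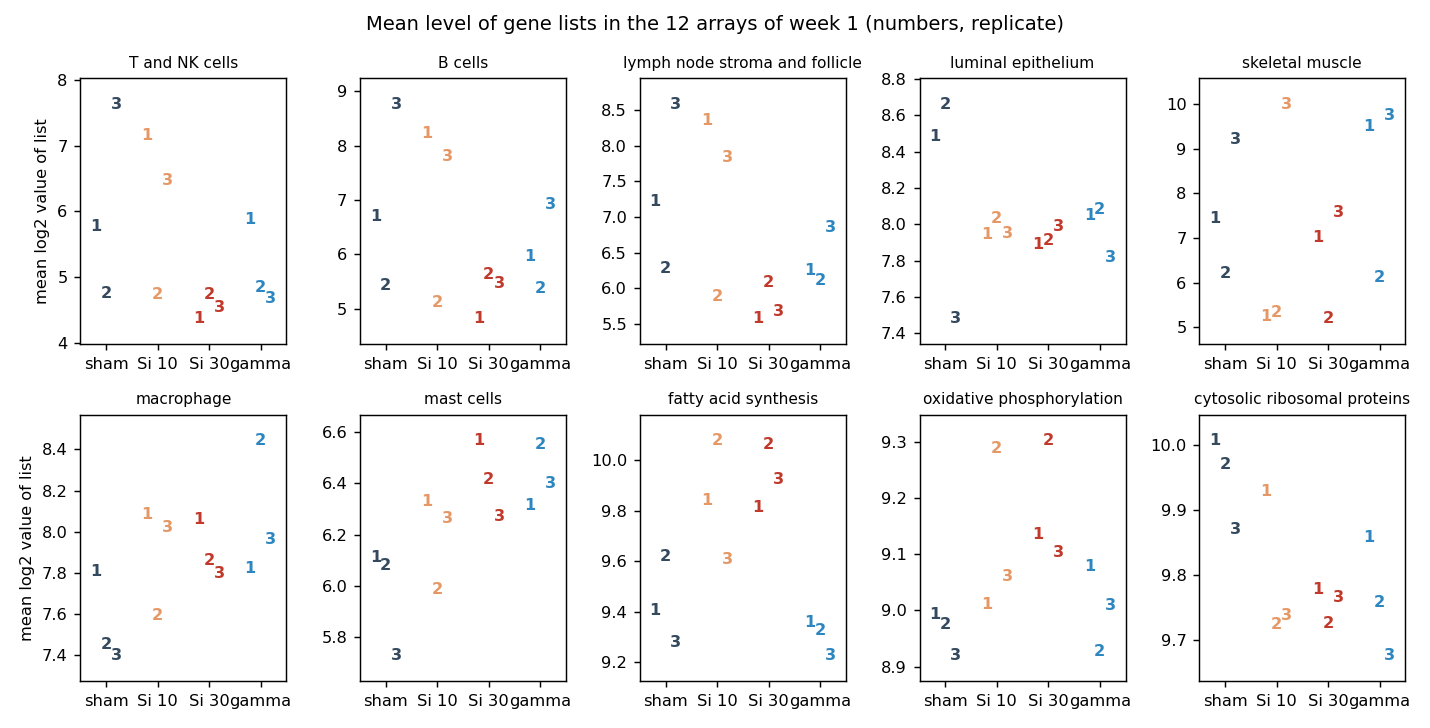
Mean log2 value (y) of 10 gene lists in the 12 arrays of week 1, by treatment (x: sham, 10 cGy Si, 30 cGy Si, 100 cGy gamma); each number is the replicate of 1 array. The T and NK cell level spans 4.76 to 7.63 over sham arrays and 4.37 to 4.74 over 30 cGy Si arrays, while fatty acid synthesis lies at 9.81 to 10.1 with 30 cGy Si and 9.28 to 9.62 with sham.

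The direct comparison of the Si doses at week 1, whose differences use no sham array, called 7 genes (0.0531%). The calls rest on the spread pooled over all 37 arrays: with only the week 1 arrays 0 genes were called by limma (1064 at an unadjusted p under 0.05), and likewise 0 with the replicate number as a block (1218). Of the 7 genes, 6 were lower after 30 than after 10 cGy. The small heat shock protein Hspb1 read 9.40, 9.67 and 9.66 after 30 cGy and 10.0, 11.2 and 10.9 after 10 cGy, a difference of -1.13 ± 0.19 (SE, adjusted p = 0.0169). Hsph1, a chaperone that aids Hsp70, differed by -1.47 ± 0.25 (SE, adjusted p = 0.0169). At 30 cGy both were near sham, with differences of 0.19 each, whereas at 10 cGy they differed from sham by 1.33 and 1.66.

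The other lower genes were Banp, a nuclear-matrix DNA-binding protein, at -0.79 ± 0.14 (SE, adjusted p = 0.0313), the prolyl hydroxylase P4ha1 at -0.71, Herpud1, a gene of endoplasmic reticulum degradation, at -0.59, and Aff1, a subunit of elongation complexes, at -0.45. Arhgap18 was the called gene with the higher value after 30 cGy. It read 8.27, 8.37 and 8.21 after 30 cGy, 7.74, 7.32 and 7.44 after 10 cGy and 7.95, 7.97 and 7.74 with sham, a dose difference of 0.78 ± 0.15 (SE, adjusted p = 0.0347). Among 16 heat shock chaperones 10 were lower after 30 than after 10 cGy at an unadjusted p under 0.05, beside 2.75% of all genes, with a median of -0.41.

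**Figure D5:**
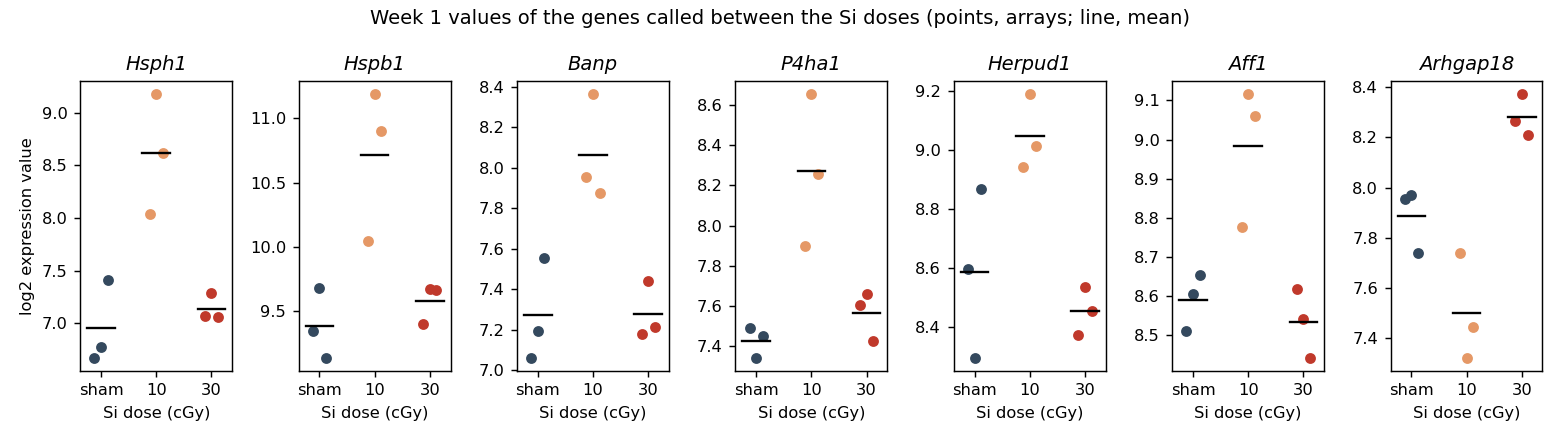
Log2 expression value (y) in each week 1 array of sham, 10 cGy Si and 30 cGy Si (x) for the 7 genes called between the Si doses (points, arrays; line, mean). For Hsph1, Hspb1, Banp, P4ha1, Herpud1 and Aff1 every 30 cGy array lies below every 10 cGy array, and for Arhgap18 above.

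Against 100 cGy of gamma rays at week 1, 0 genes (0%) passed limma's adjusted threshold and 583 lay under 0.05 before adjustment. Lowest in p was Psrc1, a p53-induced spindle gene, at -1.11 ± 0.23 (SE, adjusted p = 0.445). Psrc1 differed from sham by 0.17 after 30 cGy Si and by 1.28 after gamma rays. Ephx1, which opens epoxides, differed between the exposures by -0.56, and the clock gene Arntl by 1.26, neither called. The 15 circadian clock genes tested had a median of -0.27 in that comparison, with 4 above 0. At an unadjusted p under 0.05, 3 of these clock genes were higher and 7 lower, beside 397 and 186 of the 13174 genes tested.

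The 30 cGy Si difference from sham was also compared between weeks. For week 1 minus week 4, 0 genes (0%) were called by limma and 1128 had an unadjusted p under 0.05, and for week 1 minus week 12 these were 0 (0%) and 498. Ace had differences of 0.62, -0.12 and -0.20 at weeks 1, 4 and 12, and the week 1 value exceeded the others by 0.73 ± 0.17 (SE, adjusted p = 0.546) and 0.81 ± 0.18 (SE, adjusted p = 0.396). Sham means of Ace were 8.26, 8.78 and 8.57 at these weeks, and 30 cGy Si means 8.87, 8.67 and 8.38. At week 1 Ace averaged 8.75 after 10 cGy Si and 8.96 after gamma rays. Rarres1 had differences of 0.84, 0.19 and -0.27, with sham means of 8.87, 9.31 and 9.57. Its week 1 mean was 9.71 after either Si dose and 9.35 after gamma rays. The collagen-binding integrin Itga11 had differences of 0.57, -0.16 and -0.82. Elovl6 was at 1.66, -0.68 and 1.61, so its week 1 and week 12 differences lay close together and week 4 apart from them.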

How the data were processed

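The deposited table holds log2 expression values that the authors made with RMA in the oligo package, according to the submitters' processing notes; the versions are not given in the sources used here. It has 35556 probe sets and 37 arrays, and no further normalization was applied. Gene names came from the platform annotation (21218 probe sets with 1 symbol, 1881 with several, 12457 not listed; 21185 matched RefSeq). Probe sets without a single symbol were left out. Each of 18820 genes was represented by its probe set of highest mean level, and 13174 genes with a mean above the 30th percentile (4.04) were tested.

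One limma model (R 4.3.3, limma 3.58.1; lmFit, eBayes defaults, two-sided) gave a mean to each of the 12 groups over 37 arrays, with 25 residual and 3.41 prior degrees of freedom. The number of arrays limits the precision. Named genes are the called genes, the 15 per direction with the smallest p, up to 4 members per list with the smallest p, members of the families described and 6 p53 targets, and predicted genes and small RNAs were passed over. Not every such gene is printed. Marker genes checking the tissue are extra. The members and 43 gene lists were chosen with earlier results of these data known. Lists are described by counts and medians, with no test. Alternatives were other filters, the mean of probe sets, quantile normalization, trend and robust eBayes, array weights, a block for replicate number, fits of fewer arrays, tissue covariates and leaving out each of the 6 arrays.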

Additional observations from a re-analysis of the deposited data

How the results depend on the processing

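The count of 3 called genes was 10 with a filter at the 50th percentile, 7 after quantile normalization (6 higher and 1 lower), 5 with trend and robust settings, 410 with array weights (315 higher, 95 lower), 1 with only week 1 arrays, 1 with a lymphocyte covariate, and 0 with only the 6 arrays or with 4 tissue covariates. Leaving out 1 array gave 0 to 3. Same-numbered Si and sham arrays correlated at 0.058 to 0.180 in their deviations, with 1 of 3 pairs over 0.1, so the numbers were not taken to pair the samples. Over all 4 treatments of week 1, 11 of 18 same-numbered pairs were over 0.1, from -0.198 to 0.652. With the replicate number as a block on the week 1 arrays 1 gene was called, Snord53, also the call with week 1 arrays alone. Between the Si doses, 7 calls became 4 with the mean of probe sets, and 0 with the replicate block and 0 with only week 1 arrays. Against gamma rays 0 became 4 with the replicate block and 2 with only week 1 arrays. These week 1 fits of the other exposures were chosen after seeing the data. The difference between weeks 1 and 4 gave 1 call with no filter.

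Phlda3 turned to -0.26 with 4 covariates. Mdm2 turned to 0.10 with array weights, 0.032 with the lymphocyte covariate, and ran from -0.082 to 0.092 without single arrays, with 0.087 without Si replicate 3 and 0.092 without sham replicate 3. List medians moved as follows. With 4 covariates they were 0.091 for antioxidant enzymes, 0.16 for glutathione transferases, 0.044 for fatty acid synthesis, 0.054 for sterol synthesis, 0.00083 for white adipocytes, 0.019 for oxidative phosphorylation, -0.072 for ribosomal proteins, -0.0051 for heat shock chaperones, 0.082 for endoplasmic reticulum stress, 0.16 for endothelium, -0.16 for T and NK cells, 0.18 for B cells, -0.28 for lymph node stroma and -0.15 for dendritic cells. With the lymphocyte covariate they were 0.097 for antioxidant enzymes, 0.11 for oxidative phosphorylation, 0.087 for endoplasmic reticulum stress, 0.088 for endothelium, -0.12 for T and NK cells, 0.14 for B cells, -0.17 for lymph node stroma and -0.096 for dendritic cells. Quantile normalization gave 0.13 for white adipocytes, 0.15 for oxidative phosphorylation, -0.27 for ribosomal proteins and 0.098 for endothelium, and array weights gave 0.053 for endothelium. The filter at the 50th percentile gave 0.39 for glutathione transferases. Without single arrays the medians ran from -0.082 to 0.087 for p53 targets, 0.14 to 0.22 for white adipocytes, -0.63 to -0.031 for luminal epithelium, 0.0031 to 0.30 for fibroblasts, 0.070 to 0.20 for endothelium and -1.97 to -0.75 for lymph node stroma. The lymphocyte covariate, also 1 of the 4 covariates, was the mean level of the T and NK cell and B cell genes themselves. The medians of those lists therefore went toward 0 by construction in the covariate fits. The cause of the other moves was not tested. Of 459 list medians under alternatives, 419 moved by less than that list's own spread between replicates. This limit ran from an SD of 0.019 for endothelium to 1.48 for skeletal muscle, so lists with a wide spread could move far below it. The T and NK cell median went from -1.46 to -0.64 without sham replicate 3, within its SD of 1.10. The count therefore does not measure stability.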

Other observations

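Small nucleolar RNAs, which guide the modification of ribosomal RNA, were passed over by the rule for named genes. As a group chosen after their values were seen, 51 were tested, of which 1 was above 0, 18 were lower at an unadjusted p under 0.05 (beside 3.54% of all genes) and 0 higher, and 23 had all 30 cGy Si arrays below all sham arrays (beside 6.13%). Their median difference was -0.37, and -0.38 without sham replicate 3. Their mean level was 6.98, 6.89 and 6.95 with Si and 7.35, 7.36 and 7.21 with sham, so the groups did not overlap. Snord53 averaged 9.35 with Si and 10.4 with sham, a difference of -1.05 (adjusted p = 0.191). With the 4 tissue covariates the group's median was -0.19. Against the same sham arrays the group's median was -0.21 after 10 cGy Si and -0.35 after gamma rays. Directly against 10 cGy Si, the 30 cGy Si median was -0.12, with 5 of 51 above 0. Directly against gamma rays it was 0.06, with 29 of 51 above 0. The arrays measure total RNA, and the part of RNA extraction or labelling in these values was not tested.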
